A study of Mus musculus with 27 samples.

Results

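The 9 genes described here encode parts of inflammasomes, the cytosolic complexes in which macrophages sense microbial products and activate inflammatory caspases. They were taken by name, as every probe of the array whose gene name was Nlrp3, Aim2, Nlrc4, Naip2, Naip5, Mefv, Pycard, Casp1 or Casp4. This gave 12 probes for 9 genes, out of 55681 non-control probes carrying 34844 different gene names. RNA was measured on Agilent single-colour arrays in mouse bone marrow-derived macrophages (BMDM), grown for 7 days in L929-conditioned medium from the marrow of female C57BL/6 mice aged 6 to 8 weeks. Naive cells received no ligand. Acute cells were stimulated for 4 h with 100 ng/ml LPS (a TLR4 ligand), CpG DNA (TLR9), 100 ng/ml Pam3CSK4 (TLR2) or 10 µg/ml Poly(I:C) (TLR3). Re-stimulated cells were kept with the same ligand for 24 h, then washed, left without it for 1 h and given it again for 4 h. The labels give 100 µM for the CpG dose and the methods give 1 µM, so the CpG dose is not settled here. There was no group that was pretreated and left without the second stimulus, so a level after re-stimulation holds what remained of the first exposure as well as the response to the second. Each of the 9 groups had 3 arrays, and 25 of the 27 arrays carried deposited values, with 2 arrays for acute Pam3CSK4 (replicates 1 and 3) and 2 for re-stimulated LPS (replicates 1 and 2). The methods describe the marrow both as pooled from 3 mice for a culture and as a different mouse for each replicate, so the p-values measure the spread between these cultures, which may be partly technical.

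Inflammasomes assemble when a sensor protein detects a danger signal. NLRP3 responds to disturbed ion balance and membrane damage, AIM2 binds double-stranded DNA in the cytosol, NAIP5 and NAIP2 bind bacterial flagellin and secretion-system proteins and hand the signal to NLRC4, and pyrin, the product of Mefv, responds when bacterial toxins inactivate RhoA. The adaptor ASC, encoded by Pycard, links sensors to caspase-1, which matures interleukin-1β and interleukin-18 and cleaves gasdermin D, whereas caspase-11, encoded by Casp4 in the current mouse nomenclature, binds cytosolic LPS directly. In macrophages a TLR signal raises the transcripts of several of these parts before a second signal triggers assembly, a step known as priming. The arrays measure the transcripts and not the assembly of the complex.

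All 12 probes were well above the array background on all 25 arrays, and none of their 300 spots was marked as saturated, non-uniform or an outlier. Values are log2 intensities after quantile normalization, so a difference of 1 is a 2-fold difference, and the levels of different probes were not set against each other. A change was called where limma gave a Benjamini-Hochberg adjusted p below 0.05 over all probes tested and the change was at least 1.5-fold. Nlrp3, Casp4 and Mefv had 2 probes each, of which the brighter stands for the gene. The paired probes of these genes correlated across the 25 arrays with r = 0.955 for Nlrp3, 0.987 for Casp4 and 0.989 for Mefv, the Casp4 probes covering overlapping bases. On mouse build mm9, as the array files give it, the probes lay at chr11:59379981-59380040 for Nlrp3, chr1:175396036-175396095 for Aim2, chr17:74826172-74826231 for Nlrc4, chr13:100914212-100914271 for Naip2, chr13:100981843-100981902 for Naip5, chr16:3707274-3707333 for Mefv, chr7:135136241-135136300 for Pycard, chr9:5307206-5307265 for Casp1 and chr9:5336658-5336717 for Casp4.

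The arrays differed in the level of neutrophil transcripts. All 7 macrophage markers (Adgre1, Csf1r, Cd68, Mertk, Itgam, Fcgr1 and Cd14) were above background on every array. Of 8 neutrophil markers, 7 or 8 were above background on the 15 replicate 1 and replicate 2 arrays outside acute LPS, 4 or 5 on the 7 replicate 3 arrays and 3 or 4 on the 3 acute LPS arrays. The log2 of the summed intensities of the 8 markers, in which the brightest markers weigh most, was 15.81 to 18.1, 12.35 to 15.76 and 11.71 to 12.31 in these sets of arrays. Ltf (lactoferrin, a neutrophil granule protein) was at 8.92 to 13.05, 2.09 to 4.41 and 2.51 to 3.29. Other markers of the list stayed above background throughout, S100a8 at 8.54 to 15.66 and Elane at 11.08 to 12.73 over the 25 arrays. S100a8 was not lower on every replicate 3 array. It was at 14.83 with re-stimulated CpG (14.2 and 14.62 on replicates 1 and 2) and at 15.66 with re-stimulated Pam3CSK4 (15.23 and 14.2). Elane overlapped between the sets, at 11.38 to 12.73, 11.08 to 11.92 and 11.48 to 12.1, and so did Mpo, at 3.22 to 11.47, 2.14 to 3.61 and 3.92 to 6.2. Camp overlapped between the first sets, at 10.57 to 13.93 and 6.08 to 10.79, its highest replicate 3 value being that with re-stimulated CpG (10.57 and 10.65 on replicates 1 and 2). In RNA from a mixed culture, fewer cells of a type and less RNA per cell cannot be told apart. The replicate number was also the slide: naive cells and all groups other than acute LPS shared 3 slides, 1 for each replicate number, while the acute LPS arrays lay on 3 slides of their own, read on other days with another version of the design file. Slide, neutrophil marker level and acute LPS treatment therefore cannot be told apart, and every comparison with acute LPS carries this limit.

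**Figure D1:**
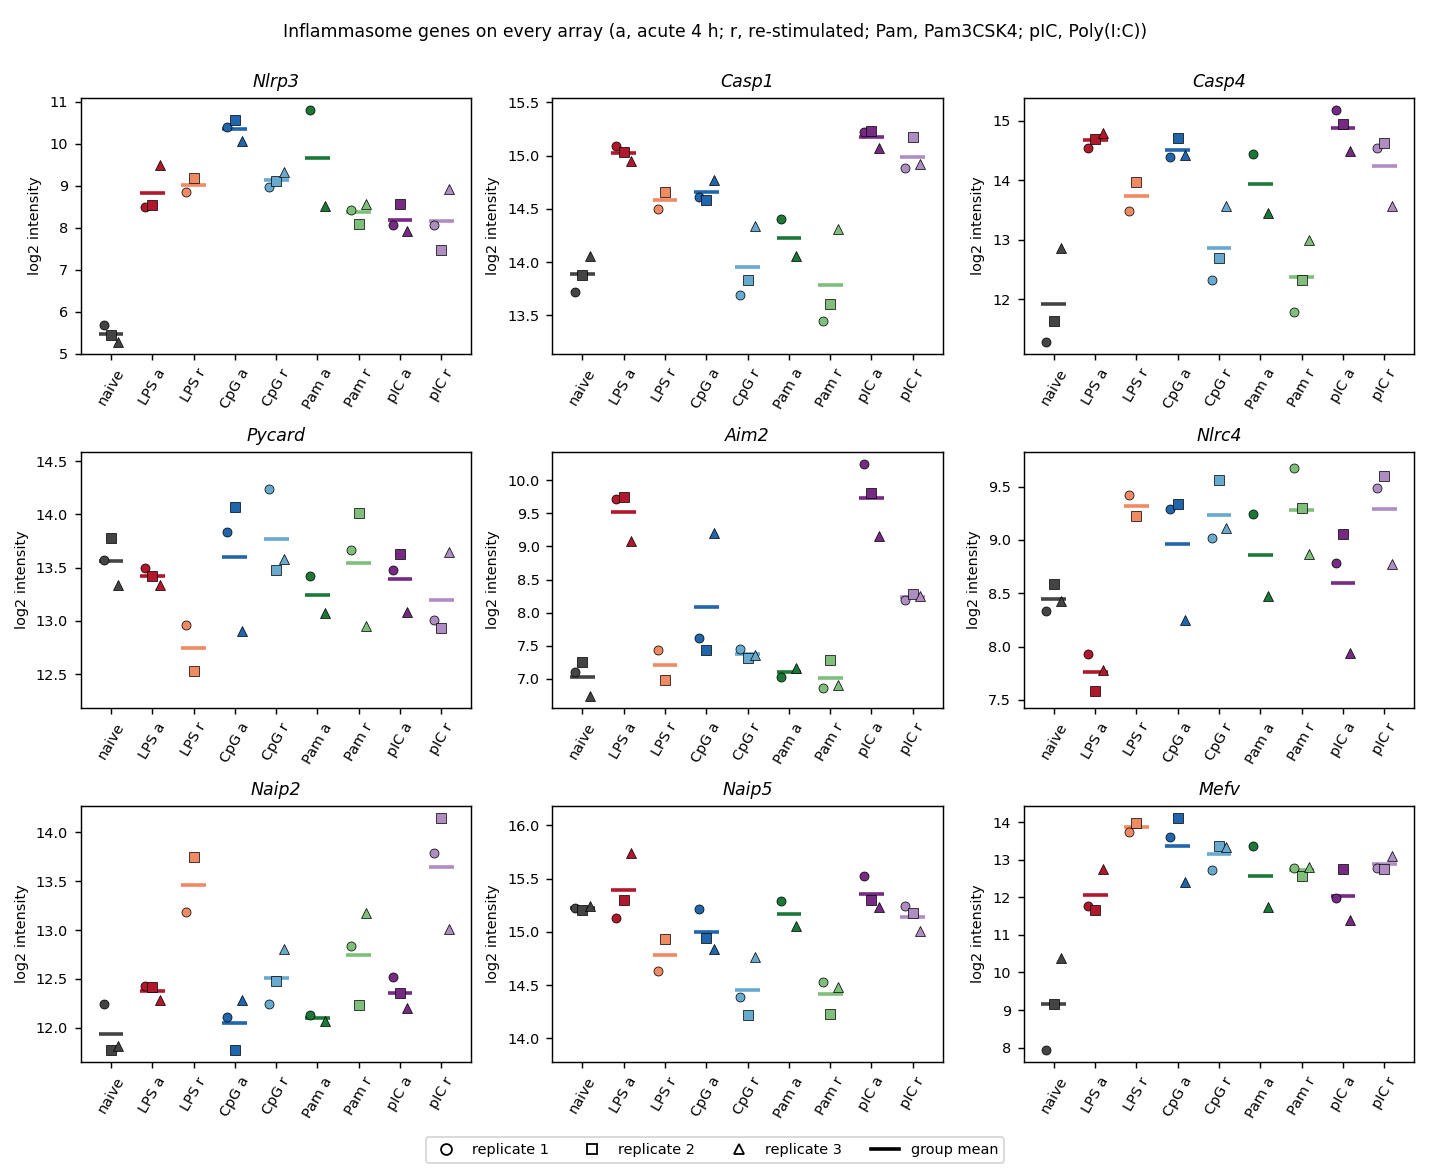
Log2 intensity (y axis) of the probe standing for each of the 9 inflammasome genes on every array, by group (x axis; a, acute; r, re-stimulated; Pam, Pam3CSK4; pIC, Poly(I:C)). Symbols mark the replicate number and bars the group mean; each panel has its own y axis, which does not start at 0. Nlrp3 and Mefv lay above the naive arrays in every stimulated group, Aim2 was high after acute LPS and acute Poly(I:C), and Nlrc4 was lowest in acute LPS.

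Sequence from before the start sites was examined for the letters of known binding motifs, because several of these genes rose together. RefSeq (GRCm38.p6) gave 11 promoters for the 9 genes, each from 250 bases before to 50 after a start site. Promoters of Casp4 and Nlrp3, genes that rose after several ligands, and of Aim2, which rose after LPS and Poly(I:C) and had low values after Pam3CSK4, are shown 5′ to 3′ on the plus strand, with motif matches in capitals. They lie at chr9:5308599-5308898 (Casp4, the first of its start sites), chr11:59541319-59541618 (Nlrp3, the first of its start sites) and chr1:173420354-173420653 (Aim2).
Casp4: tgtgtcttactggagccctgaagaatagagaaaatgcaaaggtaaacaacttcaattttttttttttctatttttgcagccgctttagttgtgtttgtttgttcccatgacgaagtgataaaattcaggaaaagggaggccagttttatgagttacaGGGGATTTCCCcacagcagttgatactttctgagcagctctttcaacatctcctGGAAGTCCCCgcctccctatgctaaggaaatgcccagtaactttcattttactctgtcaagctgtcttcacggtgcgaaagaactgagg
Nlrp3: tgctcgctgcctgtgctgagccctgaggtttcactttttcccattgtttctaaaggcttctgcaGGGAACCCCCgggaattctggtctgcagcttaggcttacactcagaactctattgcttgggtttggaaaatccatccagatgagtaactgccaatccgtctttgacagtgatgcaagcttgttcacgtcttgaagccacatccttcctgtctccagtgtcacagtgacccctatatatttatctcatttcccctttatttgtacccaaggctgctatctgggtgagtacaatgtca
Aim2: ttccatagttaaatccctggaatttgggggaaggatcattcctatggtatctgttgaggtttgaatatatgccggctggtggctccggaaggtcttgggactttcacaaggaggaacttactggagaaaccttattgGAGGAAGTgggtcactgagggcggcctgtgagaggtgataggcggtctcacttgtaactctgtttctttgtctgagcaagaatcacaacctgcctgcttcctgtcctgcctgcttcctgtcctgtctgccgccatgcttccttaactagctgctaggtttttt
The capitals in Casp4 and Nlrp3 match the NF-kB consensus. In Casp4 its matches began at -93 and -92, which overlap, and at -39 from the start site, on the plus strand, on both strands and on the minus strand respectively, and in Nlrp3 a match on both strands began at -186. Naip5 held the only other NF-kB match among the 9 genes, at -218. In Aim2 the capitals match the PU.1 letters GAGGAAGT at -113, which were also found in Pycard on the opposite strand at -44. Searched on both strands, neither the ISRE (GAAA, any 2 bases, GAAA), the GAS element (TTCNNNGAA) nor the AP-1 site (TGANTCA) was in any of these 11 windows. Of 32851 mouse promoters of this length, 8.5% held the NF-kB letters, 3.2% PU.1, 3.4% the ISRE, 8.3% GAS and 7.8% AP-1. A match describes these letters and not binding.

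Acute stimulation raised Nlrp3, Casp4, Mefv, Casp1 and Aim2 with some or all of LPS, CpG and Poly(I:C). Of the 9 genes, 5 rose and 1 fell after LPS, where 13.2% of all probes rose and 13.2% fell. After CpG 3 rose and none fell (3.09% and 2.63% of all probes), and after Poly(I:C) 4 rose and none fell (3.8% and 2.23%). With its 2 arrays, acute Pam3CSK4 gave no call among the 9 genes or any other probe (0%). The unadjusted limma p was under 0.05 for 3458 of the 27841 probes tested and for 3 of the 9 genes. The median change over the 9 genes was 1.14 after LPS, 0.77 with CpG, 0.34 with Pam3CSK4 and 1.29 after Poly(I:C), with medians of all probes tested of -0.01, -0.07, 0.006 and -0.099. Fitting all 9 groups at once, so that they shared an estimate of the spread, called 5, 5, 3 and 5 of the 9 genes, all higher, with LPS, CpG, Pam3CSK4 and Poly(I:C), where it called 33.2%, 15.2%, 5.21% and 13.4% of all probes in either direction. These 4 comparisons share the naive arrays.

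Set against the acute response, re-stimulation moved the genes in different directions. With LPS Nlrc4, Naip2 and Mefv rose and Aim2 and Casp4 fell, 3 and 2 of the 9 genes (17.2% and 17% of all probes). When the arrays without deposited values were brought in from the scanner files, so that all 27 entered, none of these 5 was called (adjusted p 0.0783 to 0.702), and neither was any of the 9 for re-stimulated LPS against naive cells. With CpG 1 fell and none rose (1.71% and 1.86%), and with Poly(I:C) 1 fell and none rose (2.62% and 2.31%). With Pam3CSK4 no probe was called (0%). Here the unadjusted limma p was under 0.05 for 3461 of the 25427 probes tested and for 2 of the 9 genes. In the fit of all groups none of the 9 was called for Pam3CSK4, where 2.39% of all probes were. Against naive cells, 2 of the 9 were higher after re-stimulation with LPS (3.28% of all probes), 2 with CpG (6.69%), 2 with Pam3CSK4 (2.61%) and 6 with Poly(I:C) (4.79%), and none was lower (2.4%, 6.48%, 2.74% and 4.23%). Replicates 1 and 2 alone were also fitted, a choice made after most neutrophil markers were seen to be low on replicate 3. Calls in either direction then numbered 6, 5 and 5 of the 9 genes in the acute comparisons with LPS, CpG and Poly(I:C). The shares of all probes tested were 45.3%, 17.7% and 25.8%. For re-stimulated against acute cells with these ligands the calls numbered 5, 2 and 2 (41.2%, 7.22% and 25.7% of all probes). For re-stimulated against naive cells they numbered 7, 4, 4 and 8 with LPS, CpG, Pam3CSK4 and Poly(I:C) (25%, 25.8%, 24.4% and 29.5%). Acute Pam3CSK4 was then represented by replicate 1 alone, with differences from naive cells of 5.24 for Nlrp3, 2.98 for Casp4 and 4.82 for Mefv.

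**Figure D2:**
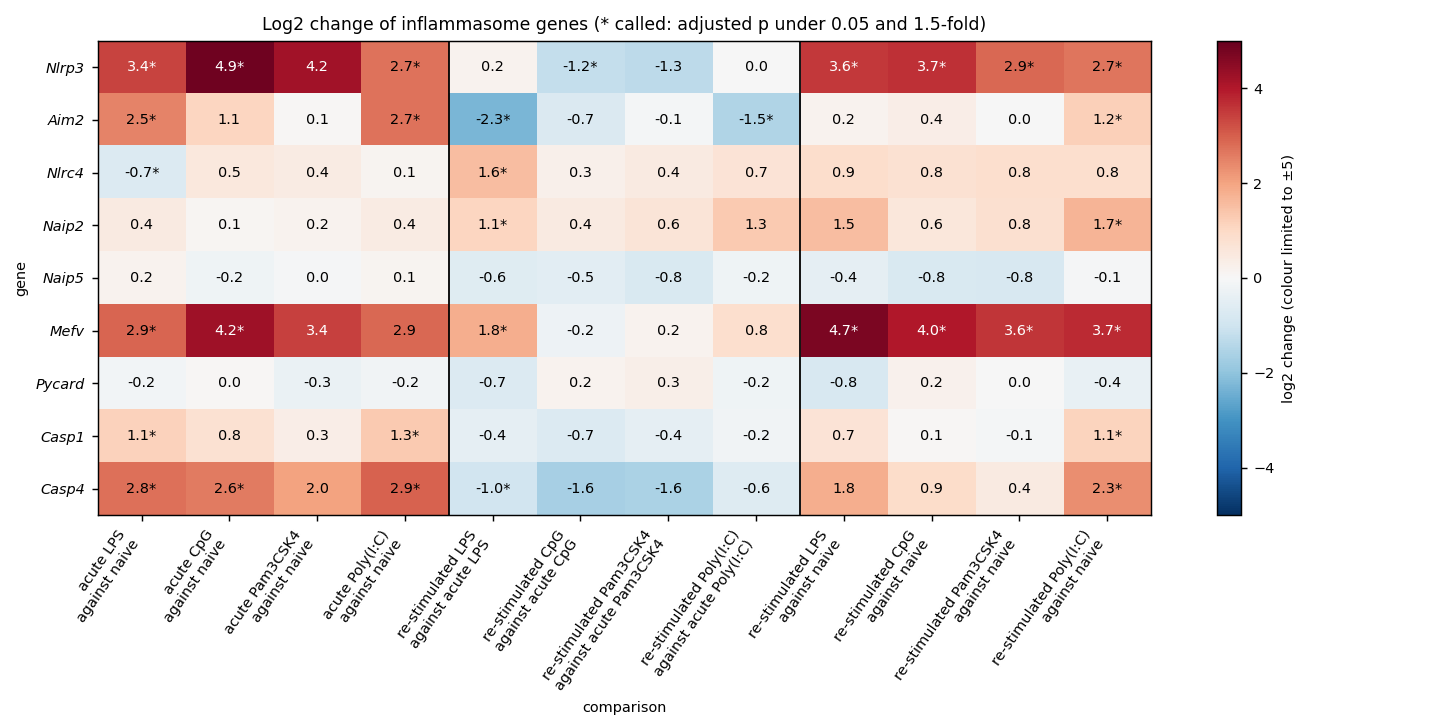
Log2 change of the 9 genes (rows) in the 12 comparisons (columns): acute against naive, re-stimulated against acute, and re-stimulated against naive for each ligand. Numbers are log2 changes to 1 decimal, an asterisk marks a call (limma, adjusted p below 0.05 and at least 1.5-fold), and colour is limited to changes of 5 in either direction. Nlrp3 was called in all 4 comparisons of re-stimulated with naive cells, and Aim2 was called lower on re-stimulation with LPS and Poly(I:C).

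Among the sensors, Nlrp3 had the largest called change after acute CpG. It lay at 5.68, 5.45 and 5.27 on the naive arrays. After 4 h it was at 8.48, 8.54 and 9.48 with LPS, 10.4, 10.55 and 10.07 with CpG, 10.81 and 8.51 with Pam3CSK4, and 8.07, 8.56 and 7.91 with Poly(I:C). All acute arrays lay above the naive ones. Nlrp3 rose 10.3-fold after LPS (log2 change 3.37, SE 0.317, adjusted p = 0.00145), 29.3-fold after CpG (4.87, SE 0.215, adjusted p = 0.000891) and 6.56-fold after Poly(I:C) (2.71, SE 0.236, adjusted p = 0.00548). The Pam3CSK4 difference was 4.19 (SE 0.7, adjusted p = 0.288) from the 2 groups alone and passed in the fit of all groups (adjusted p = 0.000133). The dimmer Nlrp3 probe had changes of 2.63, 3.87, 3.11 and 1.82 with these ligands, and its Poly(I:C) change was not called (adjusted p = 0.0687).

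Nlrp3 stayed above the naive level on re-stimulation with every ligand. Re-stimulated arrays were at 8.84 and 9.19 with LPS, 8.96, 9.1 and 9.33 with CpG, 8.42, 8.09 and 8.57 with Pam3CSK4, and 8.06, 7.47 and 8.92 with Poly(I:C). None of these overlapped the naive arrays. Against naive cells Nlrp3 was 11.7-fold higher with LPS (adjusted p = 0.00948), 12.7-fold with CpG (adjusted p = 0.0014), 7.44-fold with Pam3CSK4 (adjusted p = 0.00994) and 6.44-fold with Poly(I:C) (adjusted p = 0.0168). Against the acute level it fell by 1.21 with CpG (SE 0.203, adjusted p = 0.0387), all 3 re-stimulated arrays lying below the acute ones. The other differences from the acute level were 0.18 with LPS, -1.3 with Pam3CSK4 and -0.03 with Poly(I:C), with adjusted p from 0.458 to 0.973 and overlapping groups. In the order of group means only the step from re-stimulated Poly(I:C), the lowest stimulated group at 8.15, down to naive cells at 5.47 separated neighbours whose arrays did not overlap. The fall with CpG was lost with the replicate number as a block (adjusted p = 0.0547), with all groups in the fit (0.113), under median scaling (0.144) and without any single array but acute CpG replicate 3 (adjusted p 0.0652 to 0.134). The call against naive cells was lost for Pam3CSK4 under the block (adjusted p = 0.0546) and without naive replicate 2 or re-stimulated Pam3CSK4 replicate 1 (0.0538 and 0.0674), for LPS without either re-stimulated array (0.159 and 0.22), and for Poly(I:C) without naive replicate 1 or 2 or re-stimulated Poly(I:C) replicate 1 (0.0579 to 0.0723).

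Aim2, the cytosolic DNA sensor, was induced by LPS and Poly(I:C). Naive arrays were at 7.1, 7.25 and 6.74. Acute arrays were at 9.72, 9.74 and 9.08 with LPS, 10.25, 9.8 and 9.16 with Poly(I:C), 7.62, 7.44 and 9.21 with CpG, and 7.03 and 7.17 with Pam3CSK4. The LPS and Poly(I:C) arrays stood clear of the naive ones, the Pam3CSK4 arrays fell among them, and CpG replicate 3 stood well above the other CpG arrays. Aim2 rose 5.59-fold after LPS (log2 change 2.48, SE 0.263, adjusted p = 0.00207) and 6.53-fold after Poly(I:C) (2.71, SE 0.32, adjusted p = 0.0124). The differences were 1.06 after CpG (adjusted p = 0.269, and 0.0459 with all groups in the fit) and 0.07 after Pam3CSK4 (adjusted p = 0.929). Within replicate numbers the CpG change was 0.51, 0.2 and 2.47, so its mean rests on the replicate 3 arrays.

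With LPS and Poly(I:C) Aim2 was lower on the second exposure than on the first. Re-stimulated arrays were at 7.44 and 6.99 with LPS, 8.19, 8.28 and 8.25 with Poly(I:C), 7.45, 7.32 and 7.36 with CpG, and 6.87, 7.28 and 6.91 with Pam3CSK4. With LPS the array at 6.99 fell among the naive ones and that at 7.44 lay just above them. With Poly(I:C) the level lay between the naive and acute arrays without overlap with either. Aim2 fell by 2.3 with LPS (4.93-fold, SE 0.29, adjusted p = 0.00278) and by 1.5 with Poly(I:C) (2.83-fold, SE 0.291, adjusted p = 0.0445), and after Poly(I:C) it remained 2.31-fold above naive cells (adjusted p = 0.0216). The differences between re-stimulated and naive cells were 0.18 with LPS, 0.35 with CpG and -0.01 with Pam3CSK4 (adjusted p 0.266 to 0.982). The replicate block took both re-stimulated Poly(I:C) calls past the threshold (adjusted p = 0.051 against acute and 0.0511 against naive cells), as did median scaling (0.0588 and 0.129) and leaving out any array of that group or acute Poly(I:C) other than acute replicate 3 for the first (0.0507 to 0.146), and replicate 1 or 2 of either group for the second (0.0621 to 0.0911). The acute Poly(I:C) call was lost without naive replicate 1 or acute Poly(I:C) replicate 1 or 2 (0.0519 to 0.0736).

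Nlrc4, which forms the complex with the NAIP proteins, had its lowest group mean in acute LPS. Naive arrays were at 8.33, 8.59 and 8.43 and acute LPS arrays at 7.93, 7.58 and 7.78, without overlap. The other acute arrays were at 9.29, 9.34 and 8.25 with CpG, 9.24 and 8.47 with Pam3CSK4, and 8.78, 9.06 and 7.94 with Poly(I:C). In each of these groups the replicate 3 array was the lowest. Nlrc4 was 1.61-fold lower after LPS (log2 change -0.69, SE 0.19, adjusted p = 0.0412). That call was lost with all groups in the fit (adjusted p = 0.112), under median scaling (-0.37, adjusted p = 0.788) and without any single array but naive replicate 3 (0.0692 to 0.143). The other acute differences were 0.51, 0.41 and 0.14 (adjusted p 0.418 to 0.825).

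On re-stimulation Nlrc4 was at 9.42 and 9.22 with LPS, 9.02, 9.56 and 9.11 with CpG, 9.67, 9.3 and 8.87 with Pam3CSK4, and 9.49, 9.6 and 8.77 with Poly(I:C). All 11 of these arrays lay above the highest naive array. Against the acute level Nlrc4 rose 2.95-fold with LPS (log2 change 1.56, SE 0.211, adjusted p = 0.00342). Its differences from naive cells were 0.87, 0.78, 0.83 and 0.84 with LPS, CpG, Pam3CSK4 and Poly(I:C), none of them called (adjusted p = 0.0697, 0.0576, 0.11 and 0.108). Across the 7 groups with a replicate 3 array on the shared slides, that array was the lowest for Nlrc4 in 5, with a median difference of -0.77 from the mean of the others (range -1.06 to -0.02). Among the stimulated arrays, low Nlrc4 values were largely on those with low levels of most neutrophil markers, the acute LPS arrays included. Re-stimulated CpG replicate 3, with Ltf at 3.88, lay within its group at 9.11. Naive Nlrc4 was low whatever the marker level, at 8.33 and 8.59 with Ltf at 10.86 and 11.43, and at 8.43 with Ltf at 2.09. The part of these markers in the Nlrc4 differences was not tested.

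**Figure D3:**
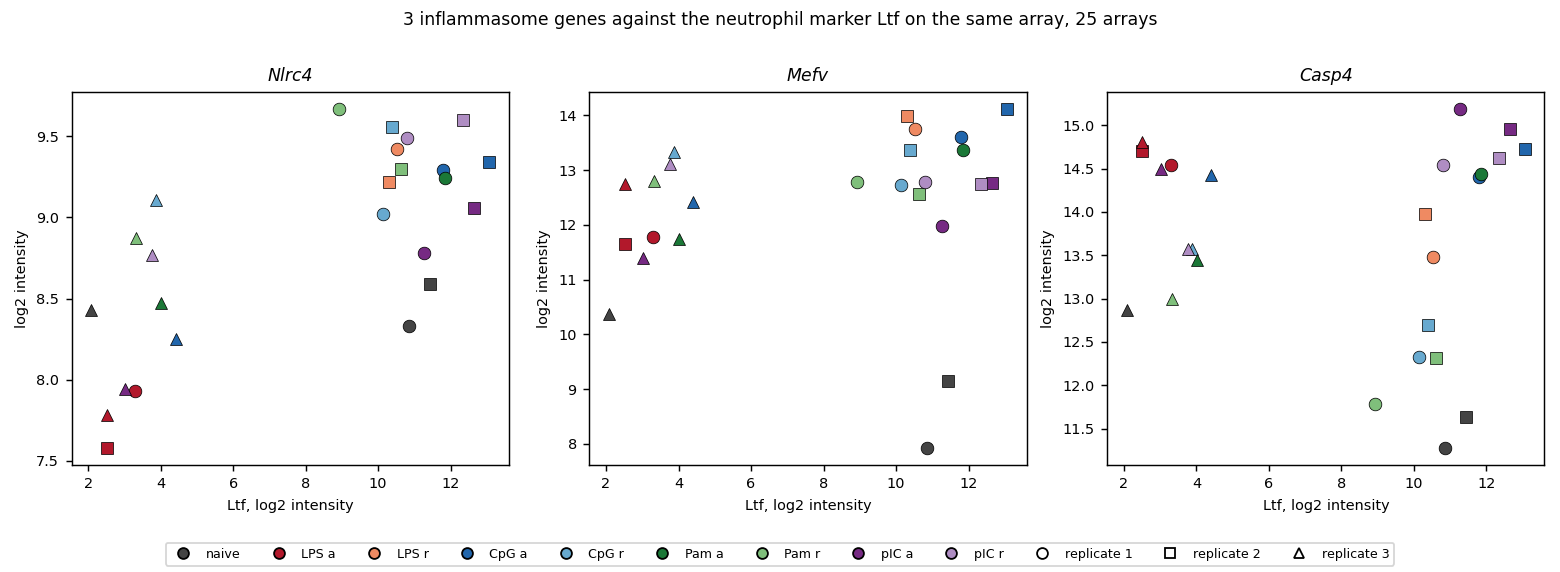
Log2 intensity of Nlrc4, Mefv and Casp4 (y axes) against that of the neutrophil granule gene Ltf (x axes) on the same array, for 25 arrays coloured by group, with symbols for the replicate number. The acute LPS and replicate 3 arrays, with Ltf at 2.09 to 4.41, lie apart from the other 15 arrays at 8.92 to 13.05, and Nlrc4 was at 7.58 to 8.47 on all acute arrays of the first set. Naive Nlrc4 was at 8.43 in the first set and at 8.33 and 8.59 among the other arrays.

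Naip2, which recognises secretion-system rod proteins, was called higher in re-stimulated cells and in no acute group. Naive arrays were at 12.24, 11.77 and 11.81, and the 11 acute arrays lay between 11.77 and 12.52. Their changes were 0.43, 0.11, 0.16 and 0.42 after LPS, CpG, Pam3CSK4 and Poly(I:C), none of them called (adjusted p 0.162 to 0.836). Re-stimulated arrays were at 13.18 and 13.75 with LPS, 13.79, 14.15 and 13.01 with Poly(I:C), 12.24, 12.48 and 12.81 with CpG, and 12.84, 12.23 and 13.17 with Pam3CSK4. Every re-stimulated LPS and Poly(I:C) array lay above every naive and acute array. Naip2 rose 2.13-fold over the acute level with LPS (log2 change 1.09, SE 0.239, adjusted p = 0.0168) and was 3.27-fold above naive cells with Poly(I:C) (1.71, SE 0.335, adjusted p = 0.0345). The remaining differences of this kind were 1.53 for LPS against naive cells (adjusted p = 0.0507) and 1.29 for Poly(I:C) against its acute level (adjusted p = 0.067), and both were called with all groups in the fit (0.00212 and 0.005). With CpG and Pam3CSK4 the re-stimulated levels differed from naive cells by 0.57 (adjusted p = 0.157) and 0.81 (adjusted p = 0.162, and 0.0499 with all groups in the fit). The rise with LPS was lost without re-stimulated LPS replicate 2 (log2 change 0.8, adjusted p = 0.1), and the Poly(I:C) call against naive cells under the block (0.0601) and without replicate 1 or 2 of either group (0.0806 to 0.123). Without naive replicate 3 the LPS difference from naive cells passed (1.46, adjusted p = 0.0239), and without re-stimulated Poly(I:C) replicate 3 so did the difference from acute Poly(I:C) (1.61, adjusted p = 0.0154).

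Naip5, the flagellin sensor, had the narrowest spread of naive values, 15.22, 15.2 and 15.24. Acute arrays lay between 14.84 and 15.74 and none of the acute differences (-0.22 to 0.17) was called. Re-stimulated arrays were at 14.63 and 14.93 with LPS, 14.39, 14.22 and 14.76 with CpG, 14.53, 14.23 and 14.48 with Pam3CSK4, and 15.24, 15.18 and 15.01 with Poly(I:C). The LPS, CpG and Pam3CSK4 arrays were all below the naive ones. Their differences from naive cells were -0.44 (adjusted p = 0.227), -0.76 (adjusted p = 0.0523) and -0.81 (adjusted p = 0.0536). The latter pair was called with all groups in the fit (adjusted p = 0.00586 and 0.00481) and without naive replicate 3 (0.0482 and 0.043), but had the opposite sign under median scaling of the arrays (0.32 and 0.29, adjusted p = 0.754 and 0.793). Against the acute level with LPS the difference was -0.61 (adjusted p = 0.113, and 0.0275 with all groups in the fit).

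The Naip5 probe also shares sequence with others, and the stretch is shown for that reason, with a 12-base core in capitals that 21 of 55680 other probes hold.
Naip5 probe, bases 21 to 50: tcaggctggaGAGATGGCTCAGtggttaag
In all, 40 of its 60 bases lie in 20-base windows shared with 4 probes of other names, 3 of them on the same strand. Over the 25 arrays the Naip5 signal correlated with those of the 4 probes with r = 0.958 (Gm4971), 0.892 (a probe with no gene name), 0.872 (BB094273) and 0.313 (Dennd5b, with the stretch on the opposite strand). The Naip5 values may therefore include other transcripts. None of the other 11 probes shared a 20-base window with a probe of another name.

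Mefv, the gene of pyrin, lay above the naive arrays in every stimulated group, and its naive level differed between replicates, at 7.93, 9.15 and 10.38. Acute arrays were at 11.78, 11.65 and 12.74 with LPS, 13.6, 14.12 and 12.41 with CpG, 13.36 and 11.75 with Pam3CSK4, and 11.97, 12.76 and 11.4 with Poly(I:C). The lowest stimulated array, at 11.4, was above the highest naive one. Mefv rose 7.48-fold after LPS (log2 change 2.9, SE 0.641, adjusted p = 0.0206) and 18.7-fold after CpG (4.23, SE 0.72, adjusted p = 0.0316). Differences of 3.4 after Pam3CSK4 (adjusted p = 0.291) and 2.89 after Poly(I:C) (adjusted p = 0.0668) were called with all groups in the fit (0.00279 and 0.00121). The dimmer Mefv probe gave 2.23, 3.57, 2.89 and 2.29 for the 4 ligands.

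Re-stimulated cells held Mefv at 13.75 and 13.99 with LPS, 12.72, 13.37 and 13.33 with CpG, 12.79, 12.56 and 12.8 with Pam3CSK4, and 12.79, 12.75 and 13.11 with Poly(I:C). These arrays spread less within a group than the acute ones did in all 4 ligands. Against naive cells Mefv was 26.2-fold higher with LPS (adjusted p = 0.0378), 15.8-fold with CpG (adjusted p = 0.0164), 11.8-fold with Pam3CSK4 (adjusted p = 0.0341) and 13.3-fold with Poly(I:C) (adjusted p = 0.0217). With LPS it also rose 3.51-fold above the acute level (log2 change 1.81, SE 0.361, adjusted p = 0.0122). The other differences from the acute level were -0.24, 0.16 and 0.84 (adjusted p 0.202 to 0.922). The size of the change followed the replicate number, with 5.67, 4.97 and 2.04 within replicates 1, 2 and 3 for acute CpG and 4.04, 3.62 and 1.02 for acute Poly(I:C). The part of the neutrophil markers in this, most of them lower on replicate 3, was not tested.

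The Mefv calls were sensitive to single arrays. The block ended those for acute CpG (adjusted p = 0.0798) and for re-stimulated Pam3CSK4 against naive cells (0.066). Without naive replicate 2 the adjusted p passed 0.05 in each of the 6 comparisons with naive cells in which Mefv was called (0.0552 to 0.303 over all arrays that ended one of these calls). Leaving out any acute LPS array ended the acute LPS call, and any re-stimulated CpG or Pam3CSK4 array, replicate 1 or 2 of acute CpG or re-stimulated Poly(I:C), or either re-stimulated LPS array ended the respective one, as did naive replicate 1 for acute CpG, re-stimulated LPS and re-stimulated Pam3CSK4. The rise over acute LPS was lost without either re-stimulated array (0.0503 and 0.0773), and without naive replicate 3 acute Poly(I:C) was called (3.5, adjusted p = 0.0208).

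Pycard, the adaptor common to most of these sensors, gave no call in any of the 12 comparisons. Naive arrays were at 13.57, 13.78 and 13.34. The acute arrays lay between 12.91 and 14.07 and the re-stimulated arrays between 12.53 and 14.24, so that the ranges overlapped. Acute differences ran from -0.32 with Pam3CSK4 to 0.04 with CpG (adjusted p 0.597 to 0.962). The re-stimulated LPS arrays, at 12.96 and 12.53, were the only group clear of the naive arrays, with a difference of -0.82 (SE 0.246, adjusted p = 0.12) and of -0.67 from acute LPS (SE 0.218, adjusted p = 0.0568). Neighbouring group means overlapped throughout the order of levels. The replicate 3 array was the lowest in 5 of the 7 groups on the shared slides.

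Of the caspases, Casp1 rose modestly with LPS and Poly(I:C). Naive arrays were at 13.72, 13.88 and 14.06. Acute arrays were at 15.09, 15.03 and 14.95 with LPS, 15.22, 15.23 and 15.07 with Poly(I:C), 14.61, 14.58 and 14.77 with CpG, and 14.4 and 14.06 with Pam3CSK4. The naive arrays overlapped with Pam3CSK4 alone. Casp1 rose 2.2-fold after LPS (log2 change 1.14, SE 0.182, adjusted p = 0.00726) and 2.44-fold after Poly(I:C) (1.29, SE 0.169, adjusted p = 0.0162). After CpG the difference was 0.77 (adjusted p = 0.0665, and 0.0144 with all groups in the fit) and after Pam3CSK4 0.34 (adjusted p = 0.61). Without naive replicate 3 the CpG difference was called (0.86, adjusted p = 0.0427), whereas the rise with Poly(I:C) did not pass without replicate 1 or 2 of either group (0.0675 to 0.0974) and under median scaling (1.81, adjusted p = 0.0891).

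On re-stimulation Casp1 was at 14.5 and 14.66 with LPS, 14.88, 15.17 and 14.92 with Poly(I:C), 13.69, 13.83 and 14.34 with CpG, and 13.45, 13.61 and 14.31 with Pam3CSK4. The Poly(I:C) arrays differed from naive cells by a called 2.15-fold (log2 change 1.1, SE 0.185, adjusted p = 0.0237). The re-stimulated LPS level differed from naive cells by 0.69 (adjusted p = 0.113, but 0.0439 and called with all groups in the fit, and 0.0357 without naive replicate 3), and the CpG and Pam3CSK4 levels overlapped the naive ones (0.07 and -0.1). Against the acute level the differences were -0.45, -0.7, -0.44 and -0.18 with LPS, CpG, Pam3CSK4 and Poly(I:C), none of them called (adjusted p 0.117 to 0.611). The CpG value passed with all groups in the fit (adjusted p = 0.0494). The call against naive cells with Poly(I:C) was lost under the block (0.0538) and without replicate 1 or 2 of either group (0.0838 to 0.0969).

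Casp4, the caspase that senses cytosolic LPS, rose with LPS, CpG and Poly(I:C). Naive arrays were at 11.28, 11.64 and 12.87, with replicate 3 the highest. Acute arrays were at 14.54, 14.7 and 14.8 with LPS, 14.4, 14.72 and 14.43 with CpG, 14.44 and 13.45 with Pam3CSK4, and 15.19, 14.95 and 14.49 with Poly(I:C). No acute array overlapped the naive ones. Casp4 rose 6.71-fold after LPS (log2 change 2.75, SE 0.418, adjusted p = 0.00617), 6-fold after CpG (2.58, SE 0.428, adjusted p = 0.0299) and 7.69-fold after Poly(I:C) (2.94, SE 0.452, adjusted p = 0.0235). The Pam3CSK4 difference was 2.01 (adjusted p = 0.318, and 0.0152 with all groups in the fit). The CpG and Poly(I:C) calls were lost under the block (adjusted p = 0.0639 and 0.0699), the first also without any single array but naive replicate 3 (0.0692 to 0.124) and the second without replicate 1 or 2 of either group (0.0744 to 0.112). Changes within replicates 1, 2 and 3 were 3.12, 3.08 and 1.56 with CpG. Those with Poly(I:C) were 3.91, 3.31 and 1.61.

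Re-stimulated Casp4 was at 13.48 and 13.98 with LPS, 12.33, 12.7 and 13.57 with CpG, 11.79, 12.32 and 13 with Pam3CSK4, and 14.54, 14.62 and 13.57 with Poly(I:C). The CpG and Pam3CSK4 arrays overlapped the naive ones, while those with LPS and Poly(I:C) stayed above. With LPS Casp4 fell by 0.95 from the acute level (1.93-fold, SE 0.233, adjusted p = 0.0244). Differences from the acute level were -1.65 with CpG (adjusted p = 0.0506, and 0.0256 with all groups in the fit), -1.58 with Pam3CSK4 (adjusted p = 0.259) and -0.63 with Poly(I:C) (adjusted p = 0.297). Against naive cells the Poly(I:C) level was 4.96-fold higher (log2 change 2.31, SE 0.501, adjusted p = 0.0441), and the others differed by 1.8, 0.93 and 0.44 with LPS, CpG and Pam3CSK4 (adjusted p = 0.117, 0.265 and 0.622), of which that with LPS was called with all groups in the fit (0.0124). The LPS fall was lost with all groups in the fit (0.134) and without acute LPS replicate 2 or re-stimulated LPS replicate 1 (0.0686 and 0.135), and the Poly(I:C) call under the block (0.106) and without replicate 1 or 2 of either group (0.12 to 0.15). Without re-stimulated CpG replicate 3 the CpG fall was called (-2.01, adjusted p = 0.0432), as was the difference of re-stimulated LPS from naive cells without naive replicate 3 (2.27, adjusted p = 0.00571). That LPS difference was also called under the block (2.27, adjusted p = 0.0151).

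The ligands were then set against each other at 4 h, over 54 pairs of ligands and genes, each contrast adjusted over all 30811 probes of the fit of all groups. Of these differences 10 were called, 4 of them in Aim2. The share of all probes called was 15.5% for LPS against CpG, 17.6% for LPS against Pam3CSK4, 10.7% for LPS against Poly(I:C), 0.0292% for CpG against Pam3CSK4, 3.92% for CpG against Poly(I:C) and 6.48% for Pam3CSK4 against Poly(I:C). Aim2 was higher with LPS than with CpG (log2 difference 1.43, 95% interval 0.68 to 2.17, adjusted p = 0.00983) and than with Pam3CSK4 (2.41, 1.58 to 3.24, adjusted p = 0.000326). It was lower with CpG than with Poly(I:C) (-1.65, -2.39 to -0.91, adjusted p = 0.0109) and lower with Pam3CSK4 than with Poly(I:C) (-2.64, -3.47 to -1.81, adjusted p = 0.000306). Between LPS and Poly(I:C) the Aim2 difference was -0.22, with an interval of -0.97 to 0.52.

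Nlrp3 differed the other way, with CpG above LPS (LPS minus CpG -1.51, interval -2.43 to -0.58, adjusted p = 0.0241) and above Poly(I:C) (2.16, 1.23 to 3.08, adjusted p = 0.00806). Casp1 was lower with Pam3CSK4 than with LPS (LPS minus Pam3CSK4 0.79, 0.31 to 1.28, adjusted p = 0.0203) and than with Poly(I:C) (-0.94, -1.43 to -0.46, adjusted p = 0.0148). Nlrc4 was lower with LPS than with CpG (-1.2, -1.9 to -0.5, adjusted p = 0.0181) and than with Pam3CSK4 (-1.09, -1.88 to -0.31, adjusted p = 0.0454). For Casp4 no pair was called, the intervals reaching from -1.92 to 1.73 over the 6 pairs, and for Mefv from -2.47 to 2.48. Of the 10, the Aim2 differences of Pam3CSK4 from LPS and from Poly(I:C) alone were called under every alternative tried and without any single array.

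The other 8 depended on single arrays and on the setting. With only the groups of each contrast in the fit, the Aim2, Nlrc4 and Casp1 differences among them were lost (adjusted p 0.0667 to 0.253). With all 27 arrays the Nlrp3 differences were lost (0.283 for LPS against CpG and 0.111 for CpG against Poly(I:C)). Median scaling ended the Aim2 and Casp1 differences among them and that of Nlrc4 between LPS and Pam3CSK4 (0.177 to 0.512). The Nlrp3 difference between LPS and CpG was lost without replicate 1 or 2 of either group (adjusted p 0.0753 to 0.0913), and that between CpG and Poly(I:C) without acute CpG replicate 2 (2.06, adjusted p = 0.0521). For Aim2, LPS against CpG was lost without acute CpG replicate 1 or 2 (0.0609 and 0.0708), and CpG against Poly(I:C) without replicate 1 or 2 of either group (0.0537 to 0.0894). The Aim2 level after CpG itself rests on its replicate 3 array, as given above. For Casp1, LPS against Pam3CSK4 was lost without acute LPS replicate 1 or acute Pam3CSK4 replicate 3 (0.0554 and 0.196), and Pam3CSK4 against Poly(I:C) without acute Pam3CSK4 replicate 3 or acute Poly(I:C) replicate 1 or 2 (0.0556 to 0.2). For Nlrc4, LPS against CpG was lost without acute LPS replicate 2 or acute CpG replicate 1 or 2 (0.0639 to 0.0958), and LPS against Pam3CSK4 without any acute LPS array, acute Pam3CSK4 replicate 1, either re-stimulated LPS array, re-stimulated CpG replicate 1 or 3, re-stimulated Pam3CSK4 replicate 2, acute Poly(I:C) replicate 1 or re-stimulated Poly(I:C) replicate 1, which enter through the shared spread (0.0516 to 0.346).

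**Figure D4:**
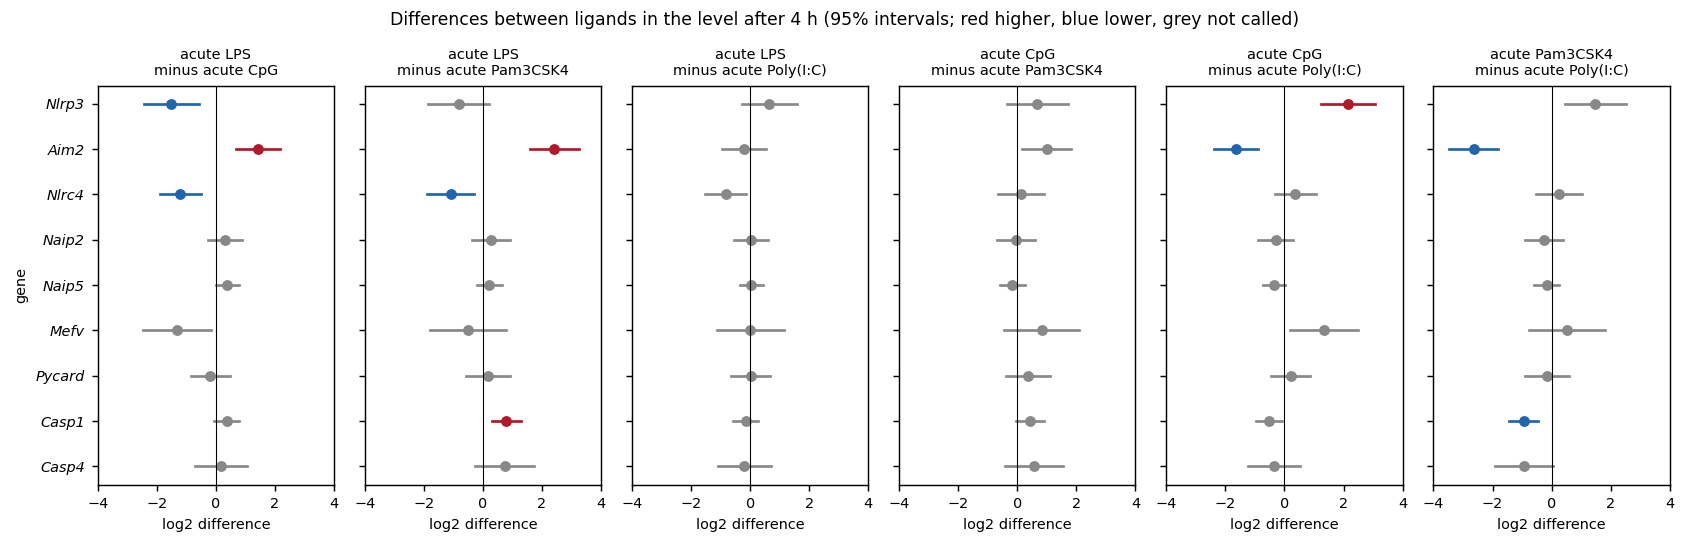
Differences in log2 level after 4 h (x axes) between each pair of ligands (panels) for the 9 genes (y axis), from a limma fit of all 9 groups. Points are differences, lines 95% intervals, and red and blue mark called higher and lower values; the 4 Aim2 differences between LPS or Poly(I:C) on one side and CpG or Pam3CSK4 on the other were all called.

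The change from the acute to the re-stimulated level was compared between ligands in the same way. Of 54 differences 1 was called, in Aim2, which fell more with LPS than with Pam3CSK4 (LPS minus Pam3CSK4 -2.22, 95% interval -3.39 to -1.05, adjusted p = 0.024), where 7.2% of all probes were called. It was lost without acute LPS replicate 1, re-stimulated LPS replicate 2, either acute Pam3CSK4 array or re-stimulated Pam3CSK4 replicate 2 (adjusted p 0.0516 to 0.11) and under median scaling (0.207). For LPS against CpG, 6.35% of all probes and none of the 9 genes were called. The Aim2 difference there was -1.59 (-2.7 to -0.48, adjusted p = 0.0754) and the Mefv difference 2.05 (0.33 to 3.77, adjusted p = 0.134). LPS against Poly(I:C) gave 3.61% of all probes, and an Aim2 difference of -0.8 with an interval of -1.92 to 0.31. In the pairs without LPS, 0.00325% to 0.101% of all probes were called. The Aim2 fall was called with LPS and with Poly(I:C) and not with CpG, and the difference between CpG and Poly(I:C), 0.79 for CpG minus Poly(I:C) (-0.26 to 1.84, adjusted p = 0.631), was not called, like that between LPS and CpG.

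The other genes of the pathway were followed as 4 lists with 49 genes, of which 47 were on the array. Acute LPS raised 18 and lowered 8 of 47, CpG raised 7 and lowered 4 of the 46 tested, and Poly(I:C) raised 12 and lowered 1 of 46. Of all probes 13.2% rose and 13.2% fell with LPS, 3.09% and 2.63% with CpG, and 3.8% and 2.23% with Poly(I:C). On re-stimulation against the acute level, LPS raised 15 and lowered 15 of 45, CpG raised 3 and lowered 3 of 42, and Poly(I:C) raised 2 and lowered 2 of 45. Here 17.2% of all probes rose and 17% fell with LPS, 1.86% and 1.71% with CpG, and 2.31% and 2.62% with Poly(I:C). Pam3CSK4 gave no call in either comparison (0% of all probes). Against naive cells, re-stimulated LPS had 10 higher and 3 lower of 46, CpG 6 and 7, Pam3CSK4 3 and 6, and Poly(I:C) 14 and 2. Among all probes 3.28% were higher and 2.4% lower with LPS, and 6.69% and 6.48% with CpG. With Pam3CSK4 these shares were 2.61% and 2.74%, and with Poly(I:C) 4.79% and 4.23%. The median changes of the tested genes were 0.54, 0.06, -0.17 and 0.49 in the acute comparisons with LPS, CpG, Pam3CSK4 and Poly(I:C), with medians of all probes between -0.1 and 0.01. Of the 10 other sensors on the array, such as the NLRP1 and further NAIP genes, 2 rose and 2 fell after acute LPS, 1 fell after CpG and 1 rose after Poly(I:C), while 3 rose and 2 fell of the 8 tested in re-stimulated against acute LPS.

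Of the substrates and pore proteins, Il1b had the largest called changes. This gene encodes pro-interleukin-1β and was at a mean of 6.02 ± 1.14 (SD, n = 3) in naive cells. On the log2 scale it rose by 6.31 with acute LPS (adjusted p = 0.00118) and 9.65 with CpG (adjusted p = 0.00623), with a difference of 2.46 after Poly(I:C) (adjusted p = 0.0848). Re-stimulation raised Il1b a further 3.52 over acute LPS (adjusted p = 0.000509) and 3.68 over acute Poly(I:C) (adjusted p = 0.0392), and it was above naive cells with all 4 ligands, by 6.14 to 9.84. Il18, by contrast, rose by 2.58 after acute LPS (adjusted p = 0.00198) and 1.45 after Poly(I:C) (adjusted p = 0.0369) and fell by 1.77 on re-stimulation with LPS (adjusted p = 0.00229) and by 2.19 with CpG (adjusted p = 0.0413). Gsdmd, the gene of gasdermin D, was called in none of the 12 comparisons (-0.28 to 1.16). Gsdme, a related pore protein, fell by 1.14 after LPS and by 1.48 after CpG and rose by 1.51 on CpG re-stimulation. Ninj1, needed for the final rupture of the membrane, rose by 1.01 on LPS re-stimulation (adjusted p = 0.027).

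Among activators and licensing factors, P2rx7, the ATP-gated channel upstream of NLRP3, was lower than in naive cells after acute LPS (-2.34), CpG (-1.85) and Poly(I:C) (-1) and in all 4 re-stimulated groups (-1.54 to -2.32). Nek7, a partner of NLRP3, was called lower on re-stimulation, by 1.11 from the acute level with LPS, and against naive cells with LPS (-1.17), CpG (-0.89) and Pam3CSK4 (-0.91). The guanylate-binding protein gene Gbp5 rose by 8.44 after LPS, 7.09 after CpG and 7.95 after Poly(I:C), and Gbp2 by 6.28, 4.3 and 5.97. With LPS re-stimulation Gbp5 fell by 3.88 and Gbp2 by 2.15. Irf1, a transcription factor that induces guanylate-binding protein genes, rose by 3.48, 2.71 and 3.89 with these ligands and fell by 3.21, 2.15 and 1.79 on re-stimulation with them, all called. Casp8 rose by 1.38 after acute LPS and fell by 1.32 on re-stimulation, Txnip was lower in re-stimulated CpG than in naive cells (-1.79), and Ripk3 gave no call.

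Of the 11 inhibitors and receptor antagonists tested in re-stimulated against naive cells, 4 were higher with LPS (median change 1.75, against 0 for all probes), 2 with CpG (0.27, against 0.01), 1 with Pam3CSK4 (0.37, against 0.03) and 5 with Poly(I:C) (1.87, against -0.04), and none was lower. Of all probes 3.28%, 6.69%, 2.61% and 4.79% were higher in these comparisons. Il18bp, which neutralises interleukin-18, was 3.37 above naive cells with LPS (adjusted p = 0.0209) and 3.47 with Poly(I:C) (adjusted p = 0.023), and rose by 2.03 over acute LPS. Il1rn, the interleukin-1 receptor antagonist, rose by 1.78 over acute LPS (adjusted p = 0.00711) and was 2.84 above naive cells with Poly(I:C) (adjusted p = 0.0354). Trim30a, known to restrain NLRP3, rose by 1.49 after LPS and 1.7 after Poly(I:C). Serpinb1a was not called, its naive arrays running from 3.94 to 8.42.

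**Figure D5:**
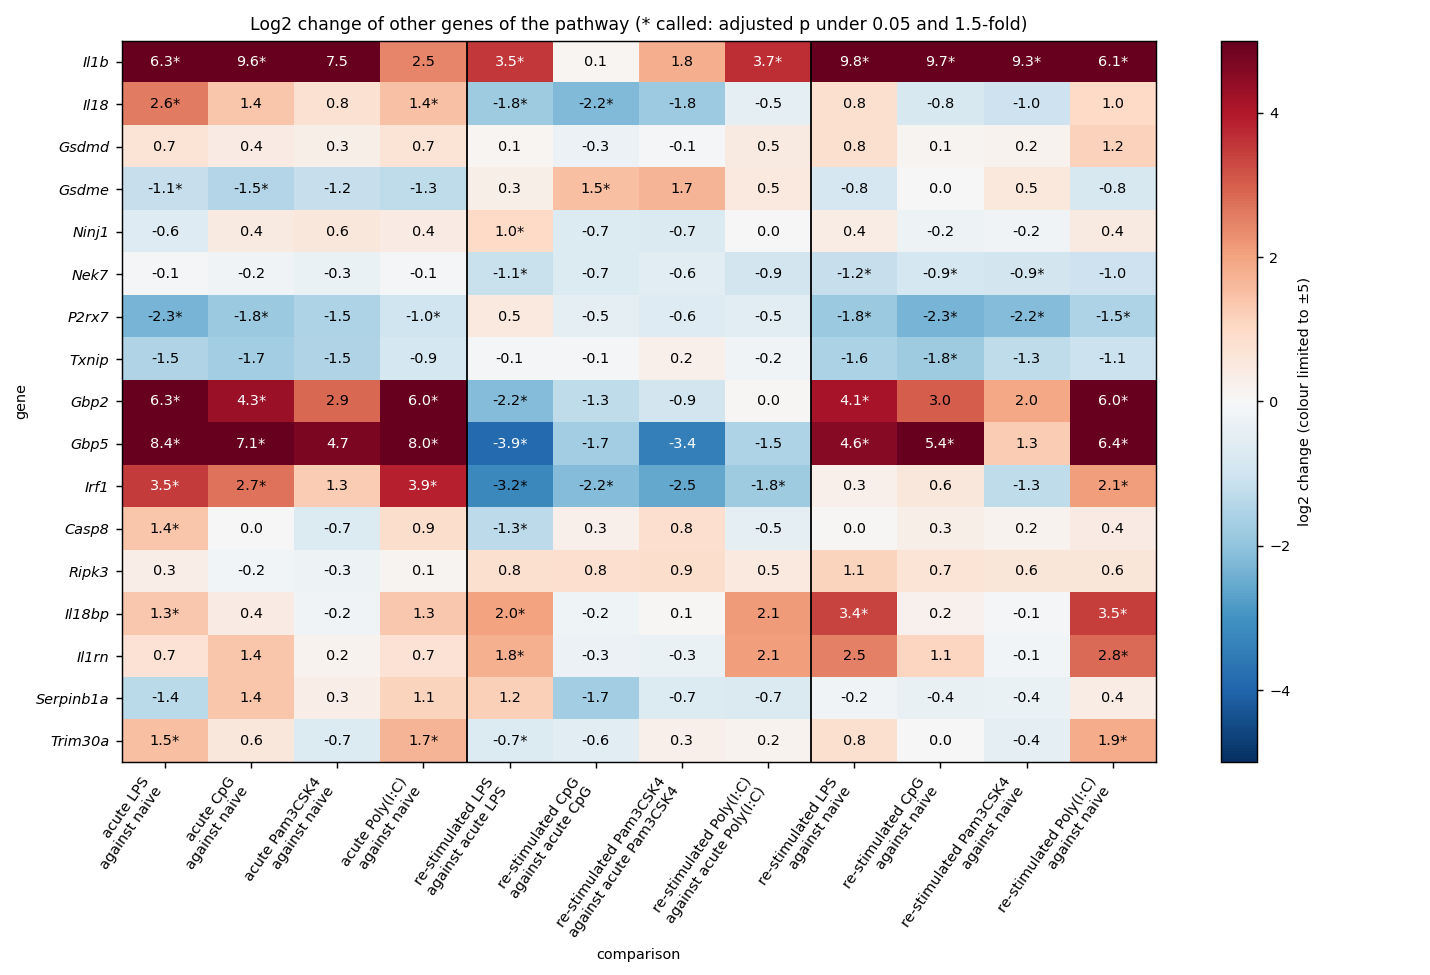
Log2 change of 17 further pathway genes (rows) in the 12 comparisons (columns), as numbers to 1 decimal with an asterisk for a call (limma, adjusted p below 0.05 and at least 1.5-fold) and colour limited to changes of 5 in either direction. Il1b was called higher in all 4 re-stimulated groups against naive cells and P2rx7 lower.

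Genes whose levels most resembled those of the 9 were found by Pearson correlation over the 25 arrays among 30799 probes of other genes, keeping the best probe of a name. The 3 closest are given for each. These arrays share groups, slides and cell mixtures, so the values are descriptions. Nlrp3 was most like Pde4b (r = 0.929), Ankrd33b (0.903) and Nfkb2 (0.894). Mefv was most like Mmp14 (0.956), Clec4e (0.933) and Birc3 (0.926). For Casp1 these were Gbp3 (0.939), Zc3hav1 (0.925) and Brd2 (0.923), and for Casp4 Cd40 (0.929), Icam1 (0.925) and Nfkbie (0.912). A probe without a gene symbol led for Aim2 (0.969), followed by March5 (0.963) and Setdb2 (0.96), and another for Naip2 (0.983), followed by Osm (0.917) and Grina (0.913). Nlrc4 was most like Slc16a3 (0.944) and Sema4a (0.928), then a probe without a symbol (0.922). For Naip5, Gm4971, whose probe shares the stretch described above (0.958), stood between 2 probes without a symbol (0.964 and 0.944). Pycard had no match as close, Helz leading with r = 0.757 before Ceacam2 (0.701) and 2900026A02Rik (0.695). Among the 9 genes themselves the closest pairs were Casp1 and Casp4 (r = 0.908), Nlrp3 and Mefv (0.834) and Casp1 and Aim2 (0.79).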

How the data were processed

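RNA of 9 groups of mouse BMDM was hybridised to 27 Agilent 1-colour arrays. The authors deposited log2 values for 25 arrays, made per their methods with limma by RMA background correction and quantile normalization. The 2 arrays without deposited values had 92.43% and 99.93% of spots well above background. Of the arrays used, naive replicate 3 stood apart at 74.86%. The others ran from 43.06% (re-stimulated Pam3CSK4 replicate 2) to 54.99% (acute LPS replicate 3). Naive replicate 3 enters every comparison with naive cells that uses all replicates. The part of this difference in the replicate 3 deviations was not tested. Deposited scanner intensity values served to find spots above background and for the alternatives. The deposited log2 values, rebuilt from the intensities, differed by a median of 0.033. The genes and lists were chosen with earlier results of these data known.

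For each comparison, a probe was tested if the scanner files marked it as well above background on 2 or more arrays of 1 of its groups, in limma 3.58.1 (R 4.3.3; lmFit, eBayes), with Benjamini-Hochberg adjustment over all probes tested. A call needed an adjusted p below 0.05 and a change of at least 1.5-fold. Ligands were compared as contrasts in a fit of all 9 groups (30811 probes). The scripts were tested on simulated data.

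The probe with the highest mean over the 25 arrays stood for a gene, and other pathway genes were named from a fixed list, and the 3 probes most like each member, 1 per gene name, are given. Same-numbered arrays shared a slide and deviated from their group means together for CpG (correlations of 0.26 to 0.32 between acute and naive, 0.26 to 0.4 between acute and re-stimulated and 0.1 to 0.26 between re-stimulated and naive arrays) and for Poly(I:C) (0.35 to 0.41, 0.27 to 0.44 and 0.17 to 0.24), and in re-stimulated Pam3CSK4 against naive cells (0.17 to 0.24), so the replicate number was tried as a block. For LPS the correlations were 0.01 to 0.1. For the 2 arrays of acute Pam3CSK4 they were 0.49 and 0.52 with naive arrays and 0.22 with re-stimulated Pam3CSK4 arrays. Alternatives were other background corrections and scalings, no filter on dim probes, all 27 arrays, a block, 1 fit of all groups, leaving out arrays and, chosen after seeing the data, replicates 1 and 2 only. Precision is limited by the 2 or 3 arrays of a group. Promoters came from RefSeq, assembly GRCm38.p6.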

Additional observations from a re-analysis of the deposited data

Results flagged for a closer look

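The following differences between ligands were tested as contrasts in a limma fit of all 9 groups and are listed because the same contrast gave a different result in 2 ligands. Apart from the last, each value is a log2 difference between 2 acute groups, with its Benjamini-Hochberg adjusted p over all probes. Aim2 was 1.43 higher with LPS than with CpG (adjusted p = 0.00983) and 2.41 higher with LPS than with Pam3CSK4 (adjusted p = 0.000326). With CpG minus Poly(I:C) Aim2 stood at -1.65 (adjusted p = 0.0109), and with Pam3CSK4 minus Poly(I:C) at -2.64 (adjusted p = 0.000306). Nlrp3 stood at -1.51 for LPS minus CpG (adjusted p = 0.0241) and at 2.16 for CpG minus Poly(I:C) (adjusted p = 0.00806). Casp1 was 0.79 higher with LPS than with Pam3CSK4 (adjusted p = 0.0203) and stood at -0.94 for Pam3CSK4 minus Poly(I:C) (adjusted p = 0.0148). Nlrc4 stood at -1.2 for LPS minus CpG (adjusted p = 0.0181) and at -1.09 for LPS minus Pam3CSK4 (adjusted p = 0.0454). The change of Aim2 from the acute to the re-stimulated level stood at -2.22 for LPS minus Pam3CSK4 (adjusted p = 0.024).

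In the values that involve acute LPS, the ligand and the slides cannot be told apart, and most of the neutrophil markers were low on all 3 acute LPS arrays. The Poly(I:C), CpG and Pam3CSK4 arrays shared slides. In the differences between those ligands, the 2 acute Pam3CSK4 arrays are replicates 1 and 3, against 3 arrays for the others, and the part of the neutrophil markers was not tested.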

How the results depend on the processing

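Of 32 called changes of the 9 genes, 12 were called under every alternative, and 7 of these also without any single array: Nlrp3, Casp1, Casp4 and Aim2 after acute LPS, Nlrp3 after acute CpG and acute Poly(I:C), and Nlrp3 in re-stimulated CpG against naive cells. The alternatives with no fold threshold and with any probe of a gene could only keep or add calls. None of the alternatives can tell acute LPS from its slides, so that limit also holds for the acute LPS calls named here. Values below are counts of the 9 genes called (limma), and their causes were not tested. Percentages in brackets are the share of all probes tested that was called in the same setting. Acute CpG had 3 in the main fit (5.72%), 1 without the filter on dim probes (0.74%) and 1 with the replicate block (2.1%). It had 5 with all groups in the fit (15.2%), the slide as a random block (19.7%), or replicates 1 and 2 only, chosen after seeing the data (17.7%). Acute Pam3CSK4 had 0 in the main fit (0%), 2 under median scaling (0.984%), and 3 with all groups in the fit (5.21%) or the slide block (8.37%). With replicates 1 and 2 only it was represented by replicate 1 alone. Re-stimulated LPS against acute LPS had 5 in the main fit (34.2%) and 0 with all 27 arrays (6.42%). Re-stimulated against acute CpG had 1 in the main fit (3.56%) and 0 under median scaling (2.68%), no filter (0.264%) and the replicate block (4.57%). It had 2 under normexp (5.11%), 75th percentile scaling (3.9%), all groups in the fit (5.54%), the slide block (10.2%) and replicates 1 and 2 (7.22%). For Pam3CSK4 that comparison gave 0 in the main fit (0%) and 2 with the slide block (5.49%). For Poly(I:C) it gave 1 in the main fit (4.93%) and 0 without the filter (0.409%) and with the replicate block (6.44%). With all groups in the fit (11.7%), the slide block (16.5%) and replicates 1 and 2 (25.7%) it gave 2. Against naive cells, re-stimulated LPS had 2 in the main fit (5.67%), 4 under median scaling (5.85%), 1 without the filter (0.568%) and 0 with all 27 arrays (0.472%). It had 6 under normexp (14.1%), 75th percentile scaling (12.6%) and the slide block (20.9%). With all groups in the fit it had 5 (16.3%), and with replicates 1 and 2 it had 7 (25%). Re-stimulated CpG had 2 in the main fit (13.2%). It had 4 under normexp (15.5%), 75th percentile scaling (20.4%), the slide block (24.8%) and replicates 1 and 2 (25.8%). Re-stimulated Pam3CSK4 had 2 in the main fit (5.36%), 1 without the filter (0.523%) and 0 with the replicate block (0.0215%). It had 4 with all groups in the fit (15.9%) and with replicates 1 and 2 (24.4%), and 5 with the slide block (22.3%). Re-stimulated Poly(I:C) had 6 in the main fit (9.03%), and 2 without the filter (2.23%) and with the replicate block (5.99%). Acute ligand differences numbered 4 with all 27 arrays, 4 with only the groups of each contrast and 17 with replicates 1 and 2. Differences in the change on re-stimulation numbered 0 under median scaling, 0 with all 27 arrays and 15 with replicates 1 and 2. The share of all probes called is not given beside these counts of ligand differences. With replicates 1 and 2 that share rose in the comparisons above, as for acute CpG (17.7% against 5.72%). The higher counts of ligand differences in that setting therefore cannot be read as particular to the 9 genes.

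With single arrays left out, the counts ran from 4 to 6, 1 to 4, 0 to 0 and 1 to 5 for acute LPS, CpG, Pam3CSK4 and Poly(I:C), from 3 to 5, 0 to 1, 0 to 0 and 0 to 1 for re-stimulated against acute cells, and from 0 to 7, 1 to 4, 0 to 3 and 0 to 7 for re-stimulated against naive cells. They ran from 5 to 11 for acute ligand differences and from 0 to 4 for the change on re-stimulation. The share of all probes called without each array is not given beside these ranges. Values that changed sign were Naip5 under median scaling in re-stimulated CpG (0.32) and Pam3CSK4 (0.29) against naive cells, and Nlrc4 with all 27 arrays in acute LPS minus Pam3CSK4 (0.93). For acute LPS, whose arrays shared no slide with the naive ones, the replicate block gave 5 (19.3% of all probes). For re-stimulated LPS against naive cells, whose same-numbered arrays shared slides, it gave 3 (17% of all probes, against 5.67% without the block). Median scaling moved the median of all probes to 0.28, 0.54, 0.31 and 0.17 in the acute comparisons and to 0.45 to 0.65 against naive cells on re-stimulation, and split the calls of all probes 2658 higher to 1153 lower for acute LPS (3954 to 3963 before), 1127 to 66 for CpG (863 to 735) and 1186 to 123 for Poly(I:C) (1080 to 633). In re-stimulated against acute cells the split became 8242 to 3408 for LPS (4917 to 4853), 286 to 404 for CpG (478 to 439) and 971 to 496 for Poly(I:C) (627 to 711). Against naive cells it became 1331 to 301 for re-stimulated LPS (915 to 669), 1937 to 494 for CpG (1885 to 1825), 1317 to 294 for Pam3CSK4 (730 to 767) and 1852 to 405 for Poly(I:C) (1362 to 1203).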
